A study of Mus musculus with 4 samples.

Results

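Haemoglobin-rich cells of the mouse brain preparation were cell barcodes in which haemoglobin messages made up a large part of the RNA. They were chosen by a rule on 4 genes. A barcode counted when it held at least 400 detected genes and at most 20% mitochondrial UMIs (unique molecular identifiers, each the tag of 1 captured RNA molecule), and when Hba-a1, Hba-a2, Hbb-bs and Hbb-bt together held at least 10% of its UMIs. The rule found 78 cells among 10067 that passed the gene and mitochondrial limits, from 12487 deposited barcodes. The haemoglobin share chose these cells, so their haemoglobin content is a description and was not tested against other cells. The working label "erythrocyte-like" depended on the globins and on the gene minimum. When the globin genes were left out of the clustering, no cluster of passing cells was named erythrocyte-like. None of the 78 cells could therefore lie in one, and 51 lay in endothelial-like clusters. Without the gene minimum, 636 of 701 haemoglobin-rich barcodes lay in the erythrocyte-like class. When the globin genes were kept, at the 400-gene minimum, 69 of the 78 lay in 1 erythrocyte-like cluster of 71 cells. Of these 69, 50 were endothelial-like without the globin genes. The 78 cells are therefore called haemoglobin-rich cells here.

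The study asked how dissociation of fresh brain alters the transcriptome, and whether inhibitors prevent it. Whole brains came from 4 male C57BL/6J mice at postnatal day 90, perfused through the heart with ice-cold buffer and freed of meninges as far as possible. All were digested with enzymes, and each animal gave 1 library that was not sorted. For 2 animals no inhibitors were used, and for the other 2 the transcription inhibitors actinomycin D and triptolide were present from perfusion to digestion, with the translation inhibitor anisomycin added in dissection and digestion. The labels put all 4 animals in 1 batch. The libraries held 2571 to 3597 barcodes, and a median of 1449.5 to 1693 UMIs in the passing cells outside the haemoglobin-rich set. In all, 67 barcode sequences occurred in more than 1 library. Of the 78 cells, 1 had such a barcode, and 0 had one that was haemoglobin-rich in another library.

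Adult mouse red blood cells carry haemoglobin built of paired α chains (Hba-a1 and Hba-a2) and β chains (Hbb-bs and Hbb-bt in C57BL/6J). Reticulocytes, the youngest circulating red cells, have lost the nucleus but keep messages for globins, for haem synthesis and for proteins that clear organelles. Mature red cells keep little RNA. In brain, red cells lie inside vessels lined by endothelial cells, which are wrapped by pericytes and smooth muscle cells, together called mural cells.

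The stretches upstream of the 4 rule genes and of Alas2 are shown because these 5 genes define the label. Alas2 encodes the erythroid enzyme of the first step of haem synthesis. Each line gives the 150 bases before the RefSeq start on GRCm38.p6, 5′ to 3′ on the strand of the gene. Capitals mark matches on either strand to 4 motifs. GATAA is the core that GATA factors bind. CACCC is the core that erythroid KLF factors bind. CCAAT is the core that the factor NF-Y binds. ATATAA is a box of the TATA kind.
Hba-a1, chr11:32283522-32283671, plus strand: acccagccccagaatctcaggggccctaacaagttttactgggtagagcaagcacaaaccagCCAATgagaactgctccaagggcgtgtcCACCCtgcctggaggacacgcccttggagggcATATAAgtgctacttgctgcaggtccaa
Hba-a2, chr11:32296342-32296491, plus strand: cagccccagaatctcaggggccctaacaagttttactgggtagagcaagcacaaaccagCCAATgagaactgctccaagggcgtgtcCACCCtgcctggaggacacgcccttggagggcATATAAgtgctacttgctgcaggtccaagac
Hbb-bs, chr7:103827929-103828078, minus strand: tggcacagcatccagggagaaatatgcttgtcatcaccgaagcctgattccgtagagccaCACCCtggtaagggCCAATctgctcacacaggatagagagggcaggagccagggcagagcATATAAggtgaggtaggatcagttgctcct
Hbb-bt, chr7:103813924-103814073, minus strand: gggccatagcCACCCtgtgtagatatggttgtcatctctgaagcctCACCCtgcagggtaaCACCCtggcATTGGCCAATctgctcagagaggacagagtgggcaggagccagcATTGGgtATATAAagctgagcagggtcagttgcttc
Alas2, chrX:150547267-150547416, plus strand: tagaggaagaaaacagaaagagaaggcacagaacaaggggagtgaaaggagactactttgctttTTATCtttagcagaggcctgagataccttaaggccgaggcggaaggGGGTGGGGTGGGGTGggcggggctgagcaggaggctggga

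The 4 globin stretches each held the NF-Y, KLF and TATA motifs, with the last of these 28 to 31 bases before the start, and none held the GATA motif. Alas2 held a GATA match 86 bases before the start and 3 KLF matches, all on the opposite strand. Among all 32851 promoters of this length, 13.3% held the GATA motif, 37.4% the KLF motif, 24.5% the NF-Y motif and 5.4% the TATA motif. A match is a string of letters and not a binding site, and the TATA motif was picked after the sequences had been read. The GENCODE gene spans all begin before the RefSeq starts, and the Hba-a1 and Hbb-bs stretches lie wholly inside their gene spans. The α pair was 96.1% identical over these stretches and the β pair 70.9%. Over the last 150 transcript bases, where 3′ libraries read, identity was 80.1% for the α pair and 72.5% for the β pair. How reads were shared out within a pair was not tested, so the split of UMIs between its genes is given as deposited.

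Haemoglobin-rich cells made up 1.02% and 1.24% of passing cells in the animals without inhibitors and 0.282% and 0.487% in those with them. These were 23 of 2247, 35 of 2819, 6 of 2125 and 14 of 2876 cells. The exact binomial 95% intervals, which cover counting error only, were 0.650% to 1.53%, 0.866% to 1.72%, 0.104% to 0.614% and 0.266% to 0.815%. Both animals without inhibitors lay above both animals with them. The means were 1.13% ± 0.154 and 0.385% ± 0.145 (SD, n = 2 animals each), a ratio of 2.95. The exact two-sided permutation test gave p = 0.33, the smallest that 2 animals against 2 allow, and 0.385 after Benjamini-Hochberg adjustment over the 15 group comparisons made.

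The rule cut through a sparse range. The 5 cells just inside it held 11.7%, 12.98%, 15.1%, 15.1% and 15.7% haemoglobin UMIs, and the 5 just outside held 9.46%, 8.89%, 8.80%, 8.25% and 7.17%. Only 7 cells lay between 5% and 10%, 20 lay between 1% and 5%, and 9962 lay under 1%. Within the set the share ran from 11.7% to 87.9%, with medians of 46.0% and 60.8% without inhibitors and 39.8% and 41.5% with them.

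**Figure D1:**
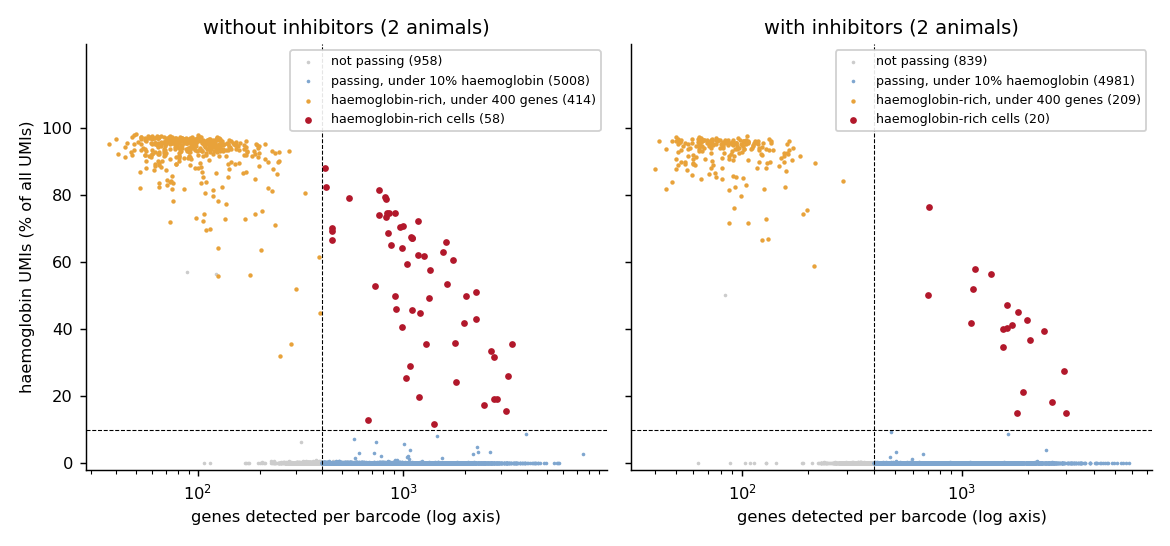
Each point is 1 deposited barcode, with detected genes on a log x axis and haemoglobin UMIs as a percentage of all UMIs on the y axis, for the 2 animals of each group. Dashed lines mark 400 genes and 10% haemoglobin. The 78 haemoglobin-rich cells (red) lie to the right of a denser cloud of 623 haemoglobin-rich barcodes with fewer genes (orange), and few cells lie just under the 10% line.

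Most haemoglobin RNA lay outside the chosen cells. A further 623 barcodes met the haemoglobin and mitochondrial limits but had fewer than 400 genes, and they numbered 157 and 257 without inhibitors and 60 and 149 with them. Of all haemoglobin UMIs in a library, these few-gene barcodes held 84.8% to 90.5%, the haemoglobin-rich cells 8.78% to 14.5%, and all other passing cells 0.407% to 0.926%. Haemoglobin took 8.42% and 10.7% of all UMIs in the libraries without inhibitors against 3.04% and 5.38% with them (exact permutation p = 0.33). In the other passing cells haemoglobin made up 9.43 and 7.75 UMIs per 10000 without inhibitors and 1.39 and 3.52 with them, and 34.3% to 77.1% of those cells had no haemoglobin UMI.

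A haemoglobin-rich cell held about as much haemoglobin RNA as a few-gene barcode and far more of everything else. The median number of haemoglobin UMIs was 2341 and 3602 in the animals without inhibitors and 2782 and 2267.5 in those with them. In few-gene barcodes the medians were 2704, 2638, 2187 and 2050 in the same order. Relative to the few-gene median of its own library, the median haemoglobin-rich cell held 1.24 times as many haemoglobin UMIs, with a range from 0.0625 to 2.60. Other UMIs separated the kinds of barcode, with medians of 118.5 to 142 per few-gene barcode and 1865 to 4295.5 per haemoglobin-rich cell. The gene minimum of the rule sets part of that gap. Against the other cells of its own class and library, 57 of the 78 cells had more non-haemoglobin UMIs than the class median, with a median ratio of 1.28 and a range from 0.286 to 4.53. By animal the median ratio was 1.11 and 1.12 without inhibitors and 2.23 and 1.93 with them. Across the 78 cells, haemoglobin and non-haemoglobin UMIs had a Spearman correlation of -0.110, given as a description of cells that share 4 libraries.

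Non-haemoglobin UMIs per haemoglobin-rich cell were lower without inhibitors, with animal medians of 1865 and 2125 against 4295.5 and 3490 with inhibitors. The group means of these medians were 1995 ± 184 and 3893 ± 570 (SD, n = 2). Median detected genes were 1099 and 1107 against 1998.5 and 1662. Both measures are bound to the limits of the rule, so these values are a description. The makeup of the sets moved with this. The 9 microglia-like members, with a median of 1477 non-haemoglobin UMIs, all came from animal 2 without inhibitors, and the part of makeup in the difference was not tested. With no minimum on genes the direction turned, to group means of 154 without inhibitors and 127 with them.

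**Figure D2:**
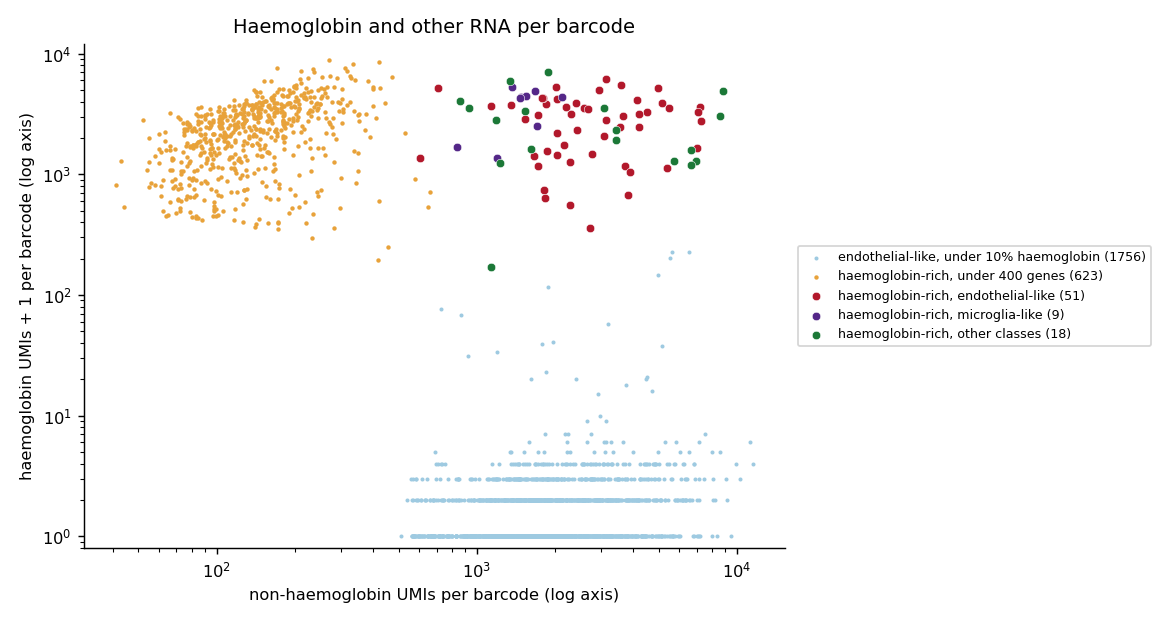
Each point is 1 barcode from the 4 animals, with non-haemoglobin UMIs on the x axis and haemoglobin UMIs plus 1 on the y axis, both on log axes. Haemoglobin-rich cells lie at the height of the few-gene barcodes (orange) and over the non-haemoglobin range of endothelial-like cells with under 10% haemoglobin (light blue).

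The non-haemoglobin RNA of these cells was mainly that of vessel cells. Passing cells were clustered with the globin and activation genes left out, and clusters were named from marker lists. Endothelial-like clusters held 51 of the 78 cells, microglia-like clusters 9, mural-like and astrocyte-like clusters 5 each, and choroid plexus-like, ependymal-like and oligodendrocyte-like clusters 2 each. A lymphocyte-like and a neural progenitor-like cluster held 1 each. No haemoglobin-rich cell was found among 332 neuron-like cells, which allows a share of up to 0.904%, nor among 136 fibroblast-like, 78 monocyte-like, 74 oligodendrocyte precursor-like and 68 border-associated macrophage-like cells. The last 4 classes allow up to 2.21%, 3.85%, 4.05% and 4.41% in the same order. Endothelial-like cells were 60.9% and 60% of the haemoglobin-rich cells without inhibitors and 83.3% and 78.6% with them (exact permutation p = 0.33).

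In each animal the endothelial-like class had a higher share of haemoglobin-rich cells than all other classes pooled, though not than each of them. Of endothelial-like cells, 4.27% and 3.97% were haemoglobin-rich without inhibitors and 1.51% and 1.78% with them, which is 51 of 1807 in all. Over the 4 animals the share was 2.88% ± 1.44 (SD) in endothelial-like cells and 0.317% ± 0.266 in all other classes together, a difference of 2.56 ± 1.19 percentage points. The ratio ran from 6.49 to 27.1 and was above 1 in 4 of 4 animals. The exact two-sided paired test gave p = 0.125, the smallest that 4 animals allow, for a comparison chosen after the shares had been seen. Mural-like cells reached similar shares on small counts, with 3 of 59 (5.08%) and 0 of 103 without inhibitors and 1 of 66 (1.52%) and 1 of 99 with them. The lymphocyte-like member was 1 of 6 such cells in animal 1 without inhibitors. Of microglia-like cells, the most numerous class, 9 of 3344 were haemoglobin-rich, all among the 912 of animal 2 without inhibitors. Classes differed in depth, with median non-haemoglobin UMIs of 1640 to 1953 in the other endothelial-like cells and 1273 to 1478 in the other microglia-like cells. A fixed share of UMIs takes fewer haemoglobin UMIs to reach in a shallower cell, and the part of depth in the class shares was not tested.

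Within the endothelial-like class the clusters differed in how their shares moved between groups. Cluster 8, led by genes that include Sema3g, Edn1, Sox17 and Cxcl12, some of them known from arterial endothelium, held 24 haemoglobin-rich cells among 506. Its share was 4.44% and 5.95% without inhibitors and 4.26% and 3.90% with them. Cluster 7, led by genes that include Slc38a5, Ndnf and Car4, held 15 of 513, with 4.55% and 5.23% against 0.885% and 1.26%. Cluster 4, led by genes that include Slc7a1, Ctla2a and Hmcn1, held 11 of 759, with 4.05% and 1.51% against 0% and 0.690%. Each of these counts is 10 or fewer per animal, and the difference between clusters was not tested.

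**Figure D3:**
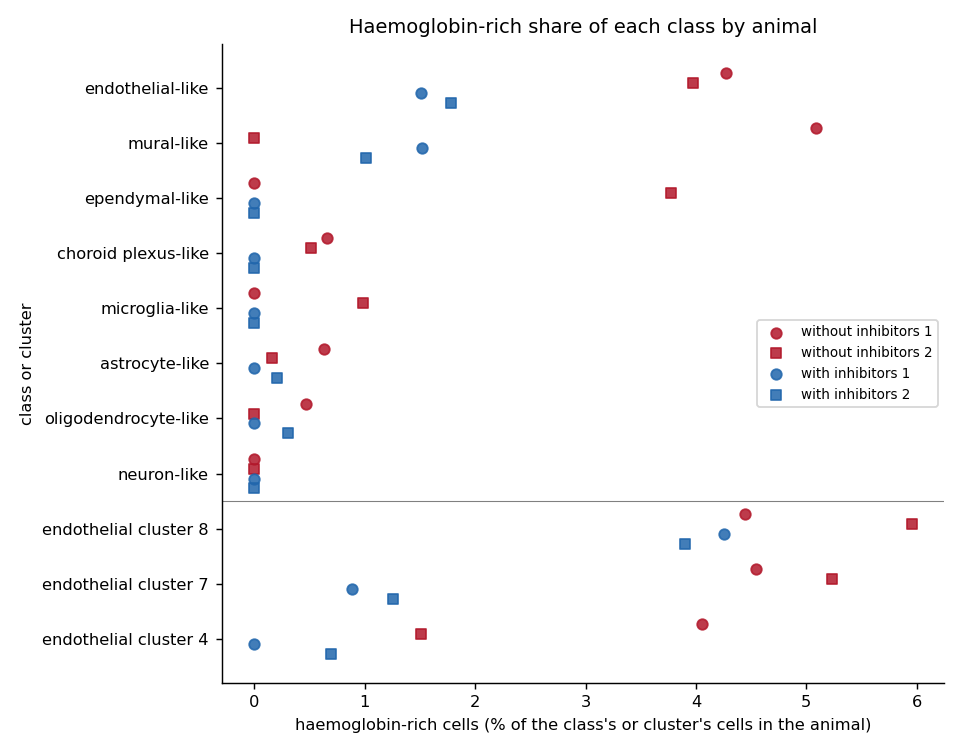
Haemoglobin-rich cells as a percentage of the cells of each class (above the line) or endothelial-like cluster (below it), 1 point per animal. Endothelial-like shares lie between 1.51% and 4.27%, and the 9 microglia-like cells come from 1 animal. Neuron-like cells are at 0% in 4 of 4 animals, but 70 to 102 cells per animal allow up to 2.94% to 4.29%.

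Most haemoglobin-rich cells carried the marker RNA of their class at close to the level of other cells of that class. The clustering kept the marker genes and clusters were named from them, so a match of a cell to its class is partly built in. The values below are therefore a description. In 72 of 78 cells the class's own marker list, per 10000 non-haemoglobin UMIs, reached at least 0.5 of the median of haemoglobin-poor cells of that class, and the median cell reached 0.969. In 74 of 78 the list that stood highest relative to its class was the cell's own. The 4 exceptions were mural-like cells in which the endothelial list stood highest. All 4 lay in 1 mural-like cluster, in which endothelial markers came second, and held 5731 to 8588 non-haemoglobin UMIs each. All 5 mural-like members held at least 2.29 times the median of their class and library. A doublet score, which compares each cell with sums of random pairs, marked 2 of the 78 haemoglobin-rich cells and 256 of all 10067 passing cells. The pairs were not made to join a brain cell with a red cell, so this count does not measure such joint capture. The part of joint capture with a red cell in these cells was not tested.

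Endothelial markers took 241 of 10000 non-haemoglobin UMIs over all haemoglobin-rich cells, against 71.1 in the other passing cells. By animal the values were 242 and 218 without inhibitors and 304 and 250 with them. In the endothelial-like members they were 329, 305, 313 and 283 in the same order, against 320, 328, 319 and 303 in the other endothelial-like cells of the same animals, so the sets overlapped. All 12 genes of the list were detected. Ly6c1, an endothelial surface protein, had the most with 947 UMIs (254 and 351 without inhibitors, 161 and 181 with them), followed by Cldn5, a tight-junction protein of the blood-brain barrier, with 814 (233, 323, 135 and 123). The endothelial list was at 19.6 per 10000 in few-gene barcodes. The 9 microglia-like members held microglial genes at 515 per 10000 against 483 in other microglia-like cells, and 43 to 117 such UMIs each. They held the endothelial list at 2.98 per 10000, as did other microglia-like cells at 3.01.

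Set against the other endothelial-like cells, most genes of the endothelial-like members were at a similar level. Of 839 genes with at least 30 UMIs in these members, a minimum that favours genes high in them, 826 were within 2-fold, 11 were more than 2-fold higher and 2 more than 2-fold lower, and the median ratio was 1.02. In every animal 76 were higher and 62 were lower. Among the 76, Alas2 led with 15.4 against 0.0102 UMIs per 10000. Bpgm, which makes the bisphosphoglycerate that lowers the oxygen affinity of haemoglobin, had 4.51 against 0.247. Isg20, an RNA exonuclease, had 1.97 against 0.150, the ubiquitin-conjugating enzyme Ube2l6 had 5.59 against 0.492, and the ubiquitin ligase Mkrn1 had 7.69 against 0.910. Fam220a had 4.00 against 0.525, and Sec61g, a subunit of the protein translocation channel that was picked after its values were seen, had 10.3 against 4.05. These values are a description, because the rule split the cells by their RNA content.

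**Figure D4:**
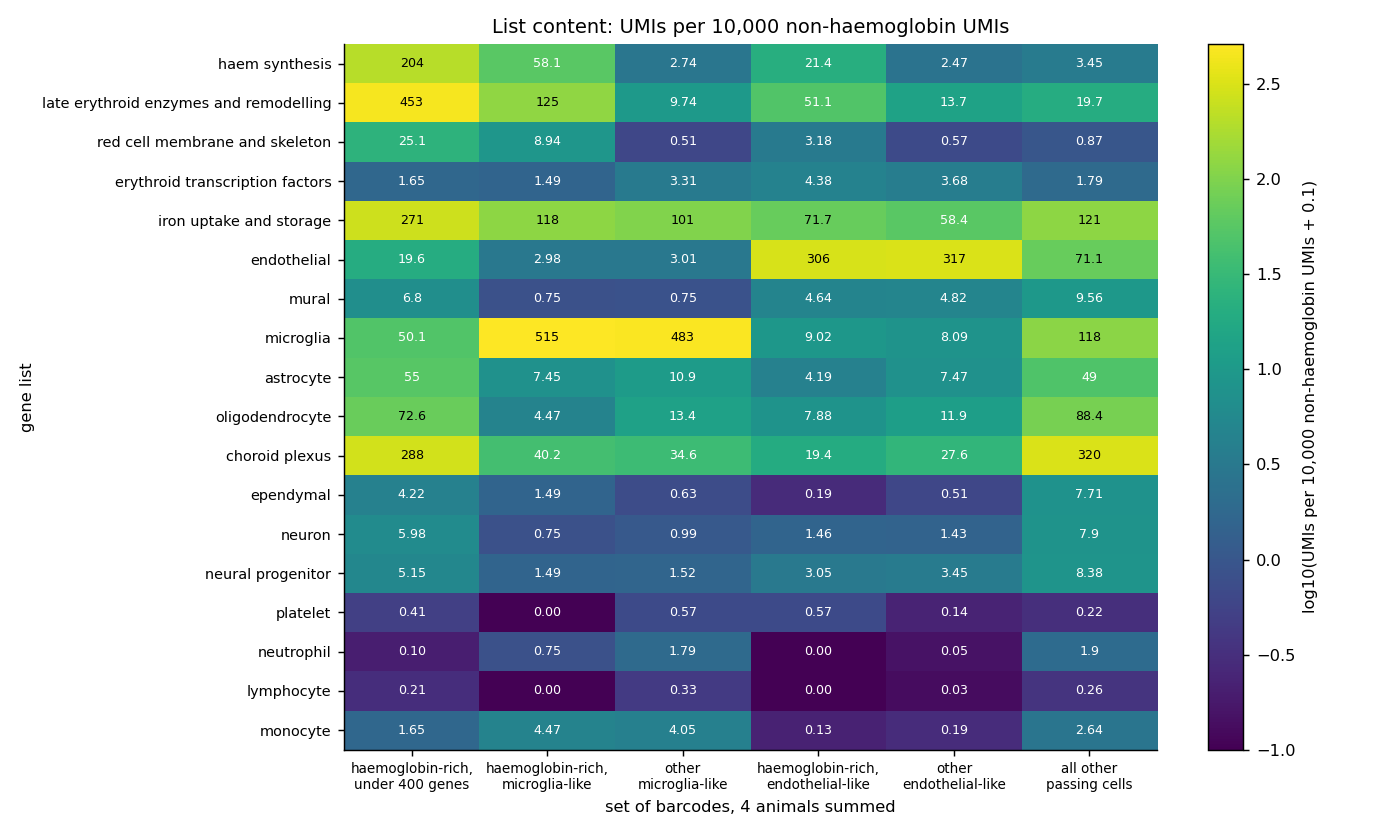
UMIs of each gene list per 10000 non-haemoglobin UMIs, summed over the 4 animals, in 6 sets of barcodes; colour is log10 of the value plus 0.1. The endothelial list is at 306 in endothelial-like members and 317 in other endothelial-like cells, and the microglial list is at 515 in microglia-like members and 483 in other microglia-like cells, while both kinds of member hold more haem synthesis and late erythroid RNA, the content that is highest in few-gene barcodes.

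The erythroid messages beside globin were those of late stages. Alas2 was found in 68 of the 78 cells, in 449 of 623 few-gene barcodes and in 17 of 9989 other passing cells. It had 94 and 197 UMIs without inhibitors and 22 and 68 with them, or 14.7, 19.7, 7.78 and 15.5 per 10000 non-haemoglobin UMIs. The 12 genes of haem synthesis and its transport together held 23.2 per 10000, against 3.45 in other passing cells and 204 in few-gene barcodes, and Alas2 gave 381 of their 547 UMIs. Fech, which inserts iron into the porphyrin ring at the last step, had 56, the mitochondrial iron carrier Slc25a37 had 26 and Slc25a39 had 43. Late erythroid enzymes and remodelling genes held 51.6 per 10000, against 19.7 and 453. By animal they held 40.6 and 72.7 without inhibitors and 19.1 and 40.7 with them, against 21.7, 18.0, 20.6 and 19.3 in other passing cells, so the 6 cells of animal 1 with inhibitors were not above the others. Among them were Mkrn1 with 181 UMIs, Bnip3l, which clears mitochondria from reticulocytes, with 162, Ube2l6 with 146 and Bpgm with 128. In few-gene barcodes the same list held a mean of 7.06 UMIs per barcode, against 15.6 in the haemoglobin-rich cells and 4.14 in other passing cells.

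Genes of the red cell membrane and skeleton were sparse at 3.09 per 10000. Epb41, which ties the skeleton to the membrane, had 29 UMIs. Slc4a1, the anion exchanger band 3, had 1. Of 8 listed erythroid transcription factors, Gata1, Klf1, Nfe2 and Gfi1b had 0 UMIs in the haemoglobin-rich cells and in the few-gene barcodes. This allows up to 3 counts over each set. The list as a whole held 3.35 per 10000 in haemoglobin-rich cells against 1.79 in other passing cells, and was higher in every animal. In endothelial-like members it held 4.38, against 3.68 in other endothelial-like cells. Lmo2 had 62 and Tal1 6, both of which endothelial cells also express. The embryonic globins Hba-x, Hbb-bh1, Hbb-bh2 and Hbb-y had 0. The minor α-like genes Hbq1a and Hbq1b had 8 and 5. Among iron genes the ferritin chains led, with 850 UMIs of Ftl1 and 790 of Fth1, and the transferrin receptor Tfrc had 39. The iron list held 74.8 per 10000 in haemoglobin-rich cells against 121 in other passing cells, and was lower in every animal. In endothelial-like members it held 71.7, against 58.4 in other endothelial-like cells.

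Markers of blood cells other than red cells were sparse in these cells. Platelet, lymphocyte and monocyte lists each held 9 UMIs, or 0.382 per 10000 non-haemoglobin UMIs, against 0.221, 0.261 and 2.64 in other passing cells. The neutrophil list held 1 UMI, or 0.0424 per 10000 against 1.90. All 9 platelet UMIs lay in endothelial-like members, at 0.572 per 10000 against 0.138 in other endothelial-like cells. Pf4 aside, which the macrophage list holds, the platelet genes Ppbp and Gp9 had 2 UMIs each, and S100a8 and S100a9 of neutrophils had 0. The lymphocyte UMIs all came from animal 1 without inhibitors, which held the lymphocyte-like member. Choroid plexus genes held 40.7 and 43.1 per 10000 without inhibitors and 8.13 and 20.2 with them, against 536, 394, 222 and 124 in other passing cells. The 2 choroid plexus-like members, with 1552 and 1521 per 10000, lay 1 in each animal without inhibitors. In endothelial-like members alone the list held 20.3 and 22.4 without inhibitors and 9.24 and 19.1 with them.

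Ratios to the other passing cells were ranked among genes with at least 30 UMIs in haemoglobin-rich cells and a higher share in every animal, a choice that favours genes high in these cells, so the ranking is a description. The genes with the largest ratios fell into 2 kinds. Alas2, Isg20, Ube2l6, Fam46c, Mkrn1, Bpgm and Fam220a, with ratios from 7.21 for Fam220a to 40.8 for Isg20 and 1878 for Alas2, each had at least 110 UMIs in few-gene barcodes. A further 12, which were Sema3g, Cd93, Jag2, Nes, Prss23, Apold1, Cyyr1, Irf7, Akap2, Jcad, C130074G19Rik and Sema7a, had ratios from 4.27 to 6.98 and at most 9 UMIs there. Sema3g (1.48 against 0.213 per 10000) and Cd93, an endothelial surface receptor (4.07 against 0.772), led this kind. These ratios are against all other passing cells, and the members are mostly endothelial-like. Against other endothelial-like cells all 12 stood closer, with Jcad at 8.94 against 8.36 and Cyyr1 at 4.28 against 4.22. Sema3g stood furthest apart in ratio, at 1.48 against 0.673. The 10 most abundant messages were Malat1, mt-Atp6, mt-Co3, Bsg, Tmsb4x, mt-Co1, mt-Cytb, Actb, Cst3 and Rpl41. Malat1, a nuclear non-coding RNA, was at 691 per 10000 in haemoglobin-rich cells, 742 in other passing cells and 33.8 in few-gene barcodes. Bsg, basigin, which is abundant in brain endothelium, was at 111 against 39.9.

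The α and β globin messages were close to balanced in sum. The 78 cells held 228164 haemoglobin UMIs, of which Hbb-bs gave 43.8%, Hba-a1 27.7%, Hba-a2 21.1% and Hbb-bt 7.39%. The ratio of α to β UMIs was 1.03 and 0.842 without inhibitors and 1.21 and 1.14 with them, against 1.09, 0.974, 1.10 and 1.06 in few-gene barcodes. Within the β pair the cells fell into groups. Hbb-bt made up under 8% of β UMIs in 30 cells, 8% to 12% in 4 and at least 12% in 44, with a range from 0% to 24.8%. Few-gene barcodes showed the same pattern, with 227, 71 and 325. These bands were set after the distribution had been seen. Within the α pair the share of Hba-a2 had a single peak, with a range of 32.5% to 52.9% and a median of 43.5%.

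The low Hbb-bt cells held fewer haemoglobin UMIs, with a median of 1573 against 3607 in the high band, and few-gene barcodes showed 1275 against 3120. Across cells the Spearman correlation of the Hbb-bt share with haemoglobin UMIs was 0.605 (78 haemoglobin-rich cells) and 0.589 (623 few-gene barcodes). Both measures use Hbb-bt counts, and cells of a library share its depth. Alas2 UMIs per 10000 haemoglobin UMIs were 6.43 in low and 11.5 in high few-gene barcodes, and 15.1 and 17.4 in haemoglobin-rich cells. In haemoglobin-rich cells the animals differed in direction. Low and high bands held 18.1 and 12.7 in animal 1 without inhibitors and 6.78 and 17.9 in animal 2 without them. They held 21.6 and 25.4 in animal 2 with inhibitors. The high band held 11 of 23 and 26 of 35 haemoglobin-rich cells without inhibitors, and 0 of 6 and 7 of 14 with them. In few-gene barcodes it held 48.4% and 54.9% against 40% and 56.4%, so the group ranges overlapped there.

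**Figure D5:**
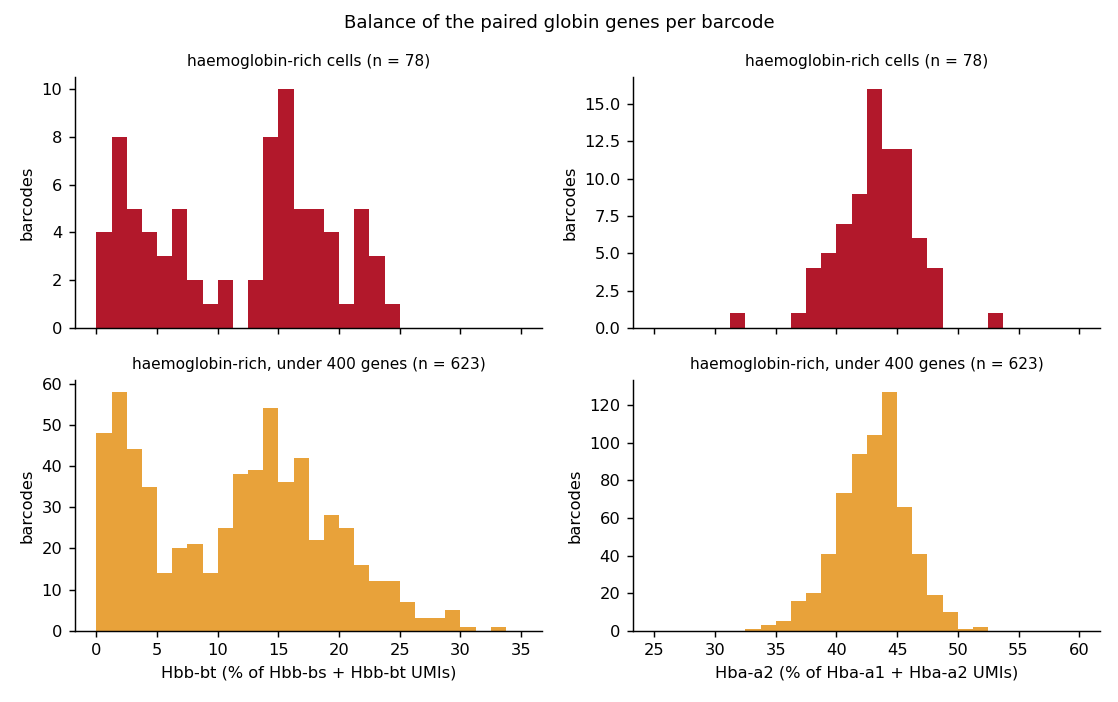
Histograms of barcodes by the share of Hbb-bt in β-globin UMIs (left) and of Hba-a2 in α-globin UMIs (right), for the 78 haemoglobin-rich cells (top) and the 623 few-gene barcodes (bottom), all 4 animals. The Hbb-bt share has a peak under 8% and another above 12% in both kinds of barcode, and the Hba-a2 share has 1 peak.

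No gene passed the test for an inhibitor difference in haemoglobin-rich cells. UMIs were summed per animal and tested with edgeR's quasi-likelihood test without the 4 rule genes, and genes were called at 0.05 after Benjamini-Hochberg adjustment if the log2 fold change also lay beyond 0.58 in either direction, with folds given as without over with inhibitors. Of 923 genes tested 0 were called (0%), 83 had an unadjusted p under 0.05, and DESeq2 also called 0, with 12. The smallest library of this test, animal 1 with inhibitors, rested on 6 cells. In the other passing cells 6 of 13867 genes were called (0.0433%), and 923 had an unadjusted p under 0.05. They were Fos, Hist1h1d, Junb, Prlr, Socs3 and Zfp36, all higher without inhibitors, and Hist1h1d, Prlr and Socs3 are named only because they were called. The calls of Fos, Junb and Zfp36 were lost when either animal with inhibitors was left out. The test of whether the effect differed between haemoglobin-rich and other cells called 0 of 12584 genes (0%). Without adjustment 327 fell under 0.05, and DESeq2 called 0, with 86 under 0.05 before adjustment. Enough counts in either set let a gene into this test, while 923 genes had enough in haemoglobin-rich cells alone. For genes with few counts in haemoglobin-rich cells a call was hardly possible, so the 0 says little about them.

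Erythroid genes had positive fold changes that did not pass the test. Of 25 genes of the late erythroid list, 8 had enough counts for the test. Enough counts in 2 libraries let a gene pass, so genes high only without inhibitors could enter, and the signs are a description. All 8 had values above 0, with a median log2 fold change of 1.08, against 482 of 923 genes and a median of 0.02 over all genes tested. Bpgm had 5.17 and 7.81 UMIs per 10000 without inhibitors against 1.77 and 2.73 with them, and the fitted log2 change was 1.58 (SE 0.40, adjusted p = 0.154, edgeR). Ube2l6 had 5.64 and 8.82 against 1.77 and 3.87 (1.39, SE 0.41, adjusted p = 0.399, edgeR). For Alas2 the fitted change was 0.63 (SE 0.33, adjusted p = 0.682, edgeR), and its groups overlapped. These values are per non-haemoglobin UMI, and the pattern depended on that scale. Per 10000 haemoglobin UMIs, Bpgm was at 5.07 and 6.64 without inhibitors against 3.15 and 4.05 with them. On that scale the groups overlapped for Ube2l6, with 5.53 and 7.49 against 3.15 and 5.74, and for Mkrn1, with 6.76 and 9.02 against 3.15 and 8.77. Bnip3l was lower without inhibitors, with 6.30 and 6.72 against 7.57 and 10.1. For Alas2 the groups overlapped with the higher mean in the animals with inhibitors, at 14.4 and 16.8 against 13.9 and 22.9. The 12 tested endothelial genes had a median of -0.12, with 3 above 0.

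Immediate early genes, which respond within minutes to stimulation, were sparse. Fos had 0 and 9 UMIs without inhibitors and 0 and 1 with them. Junb had 3 and 25 against 0 and 2, and Hspa1a, a heat-shock chaperone, had 1 and 24 against 0 and 2, so that the high values came from 1 animal. Zfp36 had 3 and 6 against 3 and 2. These 4 had too few counts for the test in haemoglobin-rich cells. In the other passing cells Fos changed by 5.45 on the log2 scale (adjusted p = 0.0424, edgeR), Junb 2.03 and Zfp36 2.14 (both adjusted p = 0.0112, edgeR). Jun had 2.66 and 2.70 UMIs per 10000 in haemoglobin-rich cells without inhibitors against 2.12 and 2.50 with them (log2 fold change 0.28, SE 0.44, adjusted p = 0.990, edgeR). Dusp1, a phosphatase that acts on stress kinases, had 2.19 and 1.60 against 5.30 and 2.50 (-0.90, SE 0.45, adjusted p = 0.584, edgeR), while in other cells the value was 0.74 (adjusted p = 0.119, edgeR). The difference between these Dusp1 effects was -1.42 (SE 0.56) and did not pass the interaction test of edgeR (adjusted p = 1).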

How the data were processed

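Single cells of 4 whole mouse brains were sequenced with 10x 3′ version 2 chemistry. Per the labels and the study's methods, the authors processed the reads with Cell Ranger 3.0.0 on mm10 (GRCm38), and the deposited values are raw UMI counts for 31053 genes, 1 matrix per animal. The totals of all deposited barcodes came to 24842583 UMIs.

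Passing cells had at least 400 genes and at most 20% mitochondrial UMIs. Their counts were scaled to 10000 per cell and logged, without globin and activation genes, and clustered on 2000 variable genes, 30 principal components and 15 neighbours with leidenalg 0.10.2 at resolution 1. A cluster was named where at least 3 markers of a list had a log2 fold of 1 or more and 10% detection, so names are rebuilt here. Cells marked by a doublet score were kept. For 71 genes that share 35 symbols, gene IDs kept the rows apart.

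UMIs were summed per animal and tested with edgeR 4.0.16 (R 4.3.3, filterByExpr, TMM, robust quasi-likelihood), with the animal as a block in the interaction test. DESeq2 1.42.0 was an alternative, as were other limits, clustering settings, left-out animals, and endothelial-like members alone, the last chosen after seeing the data. Single values used exact permutation tests over animals. With 2 animals per group, p-values measure only the spread between these animals. Intervals and floors (3 counts) cover counting error only. The scripts were tested on simulated data. Named genes were the rule genes, Alas2, fixed lists, the 20 largest ratios among genes with at least 30 UMIs, the 10 most abundant, the leading 2 genes of each brain list, Fos, Jun, Junb, Dusp1, Zfp36 and Hspa1a. Called genes beyond these were named after their values were seen. Some genes that the rule names are not reported here. The cells, lists and tests were chosen with earlier results of these data known. The activation list is the study's own, from sorted microglia. Promoter sequences are from RefSeq (GRCm38.p6), and gene spans from GENCODE on GRCm38.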

Additional observations from a re-analysis of the deposited data

Results flagged for a closer look

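The activation list, 25 genes that the study drew from sorted microglia, had group means that differed in opposite directions in haemoglobin-rich and other cells. In haemoglobin-rich cells it held 48.3 and 53.9 UMIs per 10000 non-haemoglobin UMIs without inhibitors and 71.7 and 54.1 with them, a difference of -11.86 between group means of 51.08 and 62.94. In the other passing cells it held 54.0 and 46.1 against 32.8 and 33.5, a difference of 16.91. Both animals of one group lay on the same side of both animals of the other in each set, although 53.9 and 54.1 are nearly the same. The difference of the list's summed level between the sets was not tested. Gene by gene, edgeR called 0 of 8 tested genes of the list in haemoglobin-rich cells, 3 of 25 in the other cells and 0 of 24 in the test of the difference. The 24 entered on the counts of either set, while 8 had enough counts in haemoglobin-rich cells. Over all genes tested, edgeR called 0 of 923, 6 of 13867 (0.0433%) and 0 of 12584 in the same order. No gene of any kind was called in haemoglobin-rich cells or in the test of the difference, so the counts of 0 there are not particular to the list. The sets differ in makeup: in the endothelial-like members alone the list held 53.9 and 41.4 against 76.7 and 56.3, in other endothelial-like cells 59.4 and 46.6 against 59.2 and 56.8, and in other microglia-like cells 119 and 82.0 against 25.3 and 21.9.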

How the results depend on the processing

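The higher share of haemoglobin-rich cells without inhibitors kept its direction under every alternative that gave a value, with differences of 0.639 to 0.857 percentage points when 1 animal was left out. With no gene minimum it was 3.95 points (7.87% against 3.92%), and at 50% haemoglobin 0.537 points (0.630% against 0.0931%). The difference in median non-haemoglobin UMIs was -2300.5 to -1495 on leaving out 1 animal and turned to 27 with no gene minimum. The endothelial-like share of the haemoglobin-rich cells, 70.7% as a mean over animals, was 3.84% with no gene minimum and 0.714% with globin genes kept in the clustering. The difference in the erythrocyte-like share was 0 in the main setting, in which no cluster had that name, and also on leaving out 1 animal. It was -2.75 percentage points with no gene minimum and -0.331 with globin genes kept.

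Genes called in haemoglobin-rich cells, 0 in either direction, rose to 4 higher at a 200-gene minimum, 1 higher and 1 lower at 50% haemoglobin, 1 higher with the doublet score applied and 16 higher with no low-count filter. Leaving out 1 animal gave 0 to 26 higher and 0 to 1 lower. The 26 came without animal 1 of those without inhibitors and include C1qa, C1qb, C1qc, P2ry12, Bpgm, Ube2l6 and Mkrn1; the remaining animal without inhibitors held the 9 microglia-like members. Leaving out animal 2 without inhibitors gave 2 higher (Acta2 and Myl9), and leaving out animal 2 with inhibitors gave 3 (Ckb, Mt1 and Ttr). The test of the difference between haemoglobin-rich and other cells called 6 higher at 200 genes and 2 with the doublet score, and 0 to 22 higher and 0 to 2 lower on leaving out 1 animal. In the other cells, 6 higher became 2 with the doublet score, 42 by DESeq2 and 137 with no low-count filter, with 29 lower, and 0 to 35 higher and 0 to 16 lower on leaving out 1 animal, where the lone animal is assumed to vary like the other group. In endothelial-like members alone 0 of 533 genes were called, and 0 of 12466 in the test of the difference, which genes again entered on the counts of either set. Where no value shows it, the cause was not tested.

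The replicate numbers are shared by the groups but nothing ties them to litters or days, and with 2 pairs the correlation of deviations was 0.160 in haemoglobin-rich cells and 0.0884 in others. A fit with the replicate block called 11 genes higher in haemoglobin-rich cells (Bpgm, C1qa, C1qb, C1qc, Cst3, Enpp2, Mt1, Mt3, Ndufc1, Rarres2 and Ttr), and 38 higher and 1 lower in the others. Animal 1 with inhibitors gave 6 haemoglobin-rich cells, the fewest of any animal.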
